A study of Mus musculus with 4 samples.

Results

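The 34 genes described here encode the enzymes and transporters that build and sulfate glycosaminoglycans, the long negatively charged sugar chains of proteoglycans. They were chosen by symbol from the 32285 genes of the deposited tables, and each symbol matched 1 row. By role they fall into 6 linkage enzymes, 15 chondroitin and dermatan sulfate enzymes, 7 genes of sugar nucleotide and sulfate supply, and 6 heparan sulfate enzymes. Their levels were measured by single-cell RNA sequencing in intervertebral discs of mouse tails, the fibrocartilage pads between vertebrae. All groups were 12-week-old female C57BL/6 mice, and tissue was collected 7 days after the puncture. Injured discs had been punctured from both sides with a 30G needle, and control discs of the same animals were left unpunctured. There were 2 control and 2 injured libraries, 1 of each in round 1 and in round 2. Discs were pooled into 1 cell suspension per library, with 6 mice and 30 discs named per group. The control discs lay at more distal tail levels than the injured ones, so tail level and injury cannot be told apart in any comparison below.

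A glycosaminoglycan chain starts on a serine of a core protein such as aggrecan. A short linker that begins with xylose is built first, and the next sugar added sets the chain on the chondroitin or on the heparan route. Polymerases then extend the chain in the Golgi, and sulfotransferases modify it with sulfate taken from the activated donor PAPS. In the disc, chondroitin sulfate on aggrecan draws in water and lets the tissue carry load, while heparan sulfate on cell surfaces binds growth factors.

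The libraries held 378 (control round 1), 856 (control round 2), 778 (injured round 1) and 1834 (injured round 2) cells, and their totals ranged from 1114210 to 16972879 UMIs, counts of distinct transcript molecules. Taken over all cells, control discs were shallower, with a median of 1061.5 and 836 UMIs per cell in rounds 1 and 2 against 7033.5 and 4635 in injured discs. In the inner annulus class defined below the medians were 1962 and 4530.5 in controls against 9171 and 4979 after injury. In the outer class they were 4653 and 6193 against 7881.5 and 6916, so in round 2 both classes had similar depth per cell. All levels below are UMIs per 1000000 UMIs of the stated cells (CPM). The libraries of round 1 shared barcodes. Of the 444 listed for control round 1, 225 held few UMIs in injured round 1, 115 held similar numbers in both and 104 held far more in the injured library. The latter 2 sets, the shared barcodes below, gave 159 of the 378 control cells, which may not be separate from injured cells. Most differences that passed a test on such cells are also given without them, but most levels, ratios and sums are given only with them. Of the inner annulus cells defined next, control round 1 had 199 with them and 106 without, and these 106 held 617765 of the 687141 UMIs. The outer annulus cells included none.

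Cells were clustered without the 34 genes and without the other enzymes of the pathway, and clusters were named from marker genes. Inner annulus cells, named from cartilage markers, numbered 199, 238, 433 and 764, in the order control round 1, control round 2, injured round 1 and injured round 2, which is kept for every list of 4 values. Outer annulus cells, named from fibroblast and tendon markers, numbered 34, 55, 32 and 373. A further cluster with markers of both classes, called unresolved annulus, held 2, 15, 55 and 308 cells. Disc cells are these 3 groups with the nucleus pulposus-like cells, which numbered 29, 71, 5 and 1 and were too few after injury for a comparison. Among barcodes with at most 100 UMIs, which stand for free RNA in the 3 libraries that list them, 31 of the 34 genes were lower than in disc cells in all 3. The median ratio of disc cells to such droplets was 4.74 in control round 2, 4.28 in injured round 2 and 2.18 in injured round 1.

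Over disc cells as a whole, all 34 genes had enough counts to be tested for a difference between injured and control discs, and none was called. The test was edgeR's quasi-likelihood test on UMI sums per library, with an adjusted p under 0.05 as the threshold. It called 0.0178% of all genes tested, and DESeq2 called 1.07% of all genes and none of the 34. The edgeR test gave an unadjusted p under 0.05 for 3 of the 34 (Csgalnact1, Papss2 and Slc35b2) and for 860 of all 11212 genes tested, a similar share. With round added as a block, which the shared animals of each pair allow, 2 of the 34 were called, Csgalnact1 and Papss2, both higher after injury, against 4.65% of all genes in either direction and 2.32% higher. Csgalnact1 stood at 21.2, 18.8, 34.7 and 62.2 CPM (log2 fold change 1.36 ± 0.45, edgeR adjusted p = 0.547; with the block 1.35, adjusted p = 0.0394). Papss2 stood at 34.9, 81.6, 115 and 146 CPM (1.22 ± 0.46, adjusted p = 0.6; with the block 1.29, adjusted p = 0.0217). For both genes the injured libraries lay above the controls. Neither gene was called in disc cells once the shared barcodes were also left out (adjusted p = 0.0728 for Csgalnact1 and 0.0761 for Papss2), where 1.9% of all genes were called. The median log2 fold change was 0.20 over the 34 genes and -0.02 over all genes tested. By role it was 0.14 for linkage, 0.42 for chondroitin, 0.39 for supply and 0.03 for heparan genes. Between rounds the direction was often not shared: 12 genes were higher after injury in both rounds, 4 were lower in both, and 18 differed. Over all genes tested these shares were 28.1% higher in both, 35.2% lower in both and 36.7% differing, against 35.3%, 11.8% and 52.9% of the 34. Over all cells, which add 103, 467, 162 and 259 cells of unnamed clusters and fewer macrophage-, endothelial- and mural-like cells, again none was called (0.117% of all genes), and with the block Csgalnact1 and Papss2 were called higher (6.14% of all genes in either direction, 2.73% higher). Without the shared barcodes and with the block only Papss2 was called there (2.04% of all genes).

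**Figure D1:**
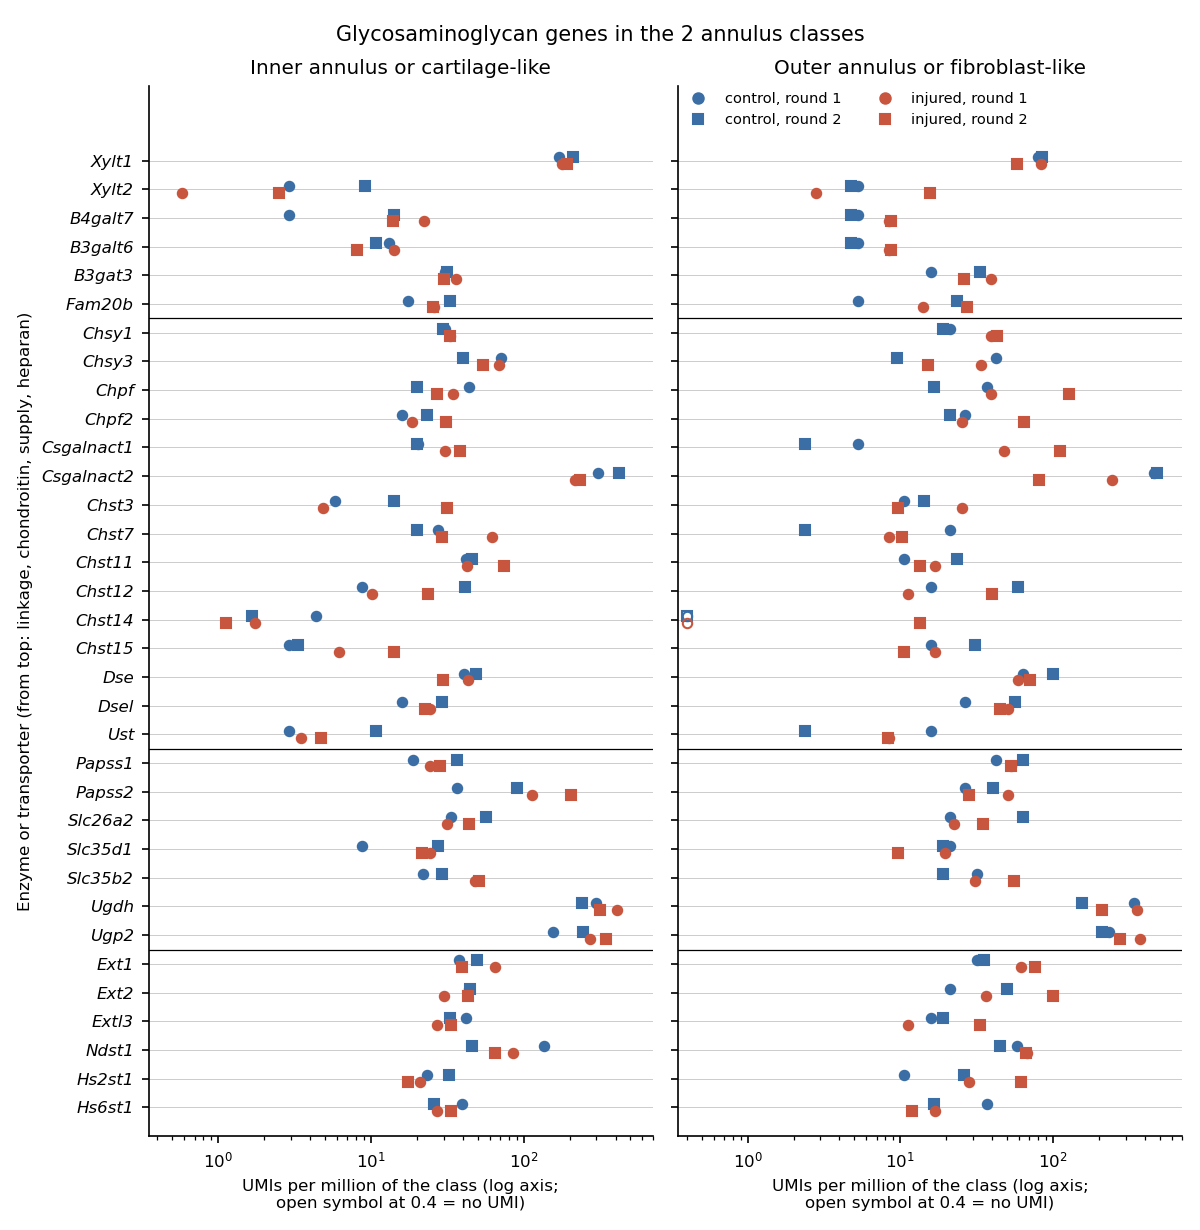
Levels of the 34 genes in the inner and outer annulus classes, in CPM on a log axis, 1 symbol per library, with genes ordered by role from linkage at the top to heparan at the bottom. In the outer class Csgalnact1 separates the injured libraries (47.6 and 110.5) from the controls (5.30 and 2.37), and Csgalnact2 does the reverse.

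Csgalnact1 and Csgalnact2 encode the enzymes that add the first N-acetylgalactosamine to the linker and so commit a chain to the chondroitin route. In outer annulus-like cells Csgalnact1 was called higher after injury, and Csgalnact2 was called lower with round as a block but not without it. Csgalnact1 (ENSMUSG00000036356, mm10 chr8:68356781-68735146, minus strand) stood at 5.30, 2.37, 47.6 and 110.5 CPM in the 4 libraries. Both control values rest on 1 UMI each, against 17 and 343 UMIs after injury, and the groups did not overlap. It rose by a log2 fold change of 4.57 ± 0.83 (SE; edgeR adjusted p = 0.0262), and with round as a block by 4.69 (adjusted p = 3.41e-06). As a plain ratio of summed levels over both rounds it was 31.8 times higher after injury, with a counting interval of 8.73 to 263. By round the ratio was 8.98 (1.41 to 375) in round 1 and 46.7 (8.32 to 1849) in round 2. It reached the test through the injured libraries alone, since it was nearly absent in controls, and it was also called when no filter on low counts was applied (adjusted p = 7.3e-06). The call was lost without control round 2 (log2 fold change 3.84, adjusted p = 0.107) or without injured round 2 (3.61, adjusted p = 0.43).

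Csgalnact2 (ENSMUSG00000042042, mm10 chr6:118107452-118139140, minus strand) stood at 456, 478, 244 and 80.8 CPM in the outer class. Both injured libraries were below both controls. Its log2 fold change of -1.63 ± 0.53 was not called (edgeR adjusted p = 0.171), and with round as a block it was called lower at -1.82 ± 0.41 (adjusted p = 0.00103). In inner annulus-like cells it stood at 306, 419, 219 and 233 CPM, again with no overlap between groups, but the log2 fold change of -0.56 ± 0.39 was not called with or without the block (adjusted p = 0.323 and 0.792).

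The promoter of Csgalnact2 is shown because the gene was lower in both injured libraries in both annulus classes. The 250 bases before its RefSeq start (GRCm38.p6, chr6:118139141-118139390, minus strand, 5′ to 3′) are given with each GC box, GGGCGG on either strand, in capitals.
Csgalnact2: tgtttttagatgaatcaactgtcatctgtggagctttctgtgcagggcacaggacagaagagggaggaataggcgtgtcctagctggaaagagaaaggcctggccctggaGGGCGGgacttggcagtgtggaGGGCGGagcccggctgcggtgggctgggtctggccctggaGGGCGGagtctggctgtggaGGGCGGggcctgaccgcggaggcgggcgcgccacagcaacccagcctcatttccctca
It holds 4 GC boxes. At least 1 such box lies in 21 of the 27 promoters matched to the 34 genes, and in 32.7% of all 32851 promoters of the same length in the RefSeq table.

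Chpf encodes chondroitin polymerizing factor, the partner with which the chondroitin synthases Chsy1 and Chsy3 extend the chain. In the outer class Chpf (ENSMUSG00000032997, mm10 chr1:75474569-75479307, minus strand) stood at 37.1, 16.6, 39.2 and 127 CPM. Only injured round 2 stood apart, and the difference lay in round 2, with a ratio of 7.68 (counting interval 3.69 to 19.2), against 1.06 (0.399 to 3.09) in round 1. The log2 fold change was 1.83 ± 0.67 (edgeR adjusted p = 0.233), and with round as a block Chpf was called higher (1.81 ± 0.54, adjusted p = 0.018). Without injured round 1 both Chpf (2.37, adjusted p = 0.000866) and Csgalnact2 (-2.55, adjusted p = 0.000307) were called with no block. Without injured round 2 the values were 0.62 for Chpf (adjusted p = 0.918) and -1.02 for Csgalnact2 (adjusted p = 0.646), and without control round 2 Chpf stood at 1.15 (adjusted p = 0.826). In inner annulus-like cells Chpf stood at 43.7, 19.9, 34.4 and 27.1 CPM with overlapping groups.

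Chpf was the only one of the 27 genes with a matched promoter whose 250 bases before the start (GRCm38.p6, chr1:75479472-75479721, minus strand) held the palindrome TGACGTCA, the full cAMP response element, which is found in 1.55% of all promoters. It is shown for that reason, with both copies and its single GC box in capitals.
Chpf: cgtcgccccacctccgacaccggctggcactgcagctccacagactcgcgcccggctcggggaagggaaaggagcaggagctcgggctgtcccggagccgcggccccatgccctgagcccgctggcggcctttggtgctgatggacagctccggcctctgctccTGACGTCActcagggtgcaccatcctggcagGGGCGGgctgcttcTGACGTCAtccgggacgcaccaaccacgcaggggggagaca
A match of letters is a description of the sequence and says nothing of whether a factor binds there. The other motifs searched, on both strands, were TGANTCA, a pattern that takes in the AP-1 motif, in 1 of the 27 (Csgalnact2) and 6.75% of all promoters, and TATAAA, the TATA box, in 0 of the 27 and 12.4% of all.

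Of the 34 genes, 21 had enough counts for the test in the outer class, and Csgalnact1 was the 1 called, against 1.69% of all genes in either direction and 1.17% higher. With round as a block 3 were called, Csgalnact1 and Chpf higher and Csgalnact2 lower, against 10.1% of all genes, of which 5.09% of genes were higher and 5.04% lower. The other chain-extending enzymes did not pass. Chsy1, a chondroitin synthase, stood at 21.2, 18.9, 39.2 and 42.8 CPM (log2 fold change 1.03 ± 0.55, edgeR adjusted p = 0.471). Chpf2, a second polymerizing factor, stood at 26.5, 21.3, 25.2 and 64.7 CPM (1.03 ± 0.62, adjusted p = 0.536). Chsy3, with the synthase activity of Chsy1, varied more between rounds than between groups, at 42.4, 9.47, 33.6 and 15.1 CPM. Chst14, the dermatan 4-O-sulfotransferase, had no UMI in the outer class of 3 libraries and 42 UMIs (13.5 CPM) in injured round 2. A count of 0 in the outer class allows up to 15.9 and 7.10 CPM in the controls of rounds 1 and 2 and up to 8.41 CPM in injured round 1, so a difference in round 1 was not detectable at this depth.

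The outer class did not hold the same clusters in control and injured discs. A cluster led by Myoc, Angptl7 and Cilp2 made up 82.4% and 87.3% of its control cells, 53.1% of those in injured round 1 and 13.9% in injured round 2. The rest belonged to a cluster led by Aspn, Cthrc1 and Postn and to a small cluster of dividing cells. Within the Myoc-led cluster Csgalnact2 was high in every library, at 510.3, 497, 481 and 336 CPM, and Csgalnact1 had 1, 0, 0 and 1 UMI. Within the Aspn-led cluster Csgalnact1 lay above Csgalnact2 after injury. There Csgalnact1 stood at 119 and 123 CPM in the injured libraries, and Csgalnact2 at 89.1 and 47.9. In injured round 1 the cluster held only 11 cells and 134614 UMIs in all, too few to part these 2 levels, against 243 cells and 1943396 UMIs in injured round 2. Control discs held only 6 cells of the Aspn-led cluster in each round, with no Csgalnact1 UMI, which allows up to 101 and 91.3 CPM. Csgalnact2 in those control cells stood at 168 (5 UMIs) and 304 (10 UMIs) CPM. Chpf stood at 52.0 and 146 CPM in injured Aspn-led cells and at 15.6 to 44.1 in the Myoc-led cluster across the 4 libraries.

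For these 3 genes a change of level inside a cluster and a change in the share of clusters cannot be told apart with so few control cells in the Aspn-led cluster. Without the dividing cluster, which held 78 of its 83 cells in injured round 2, the Csgalnact1 log2 fold change was 5.55 (edgeR adjusted p = 0.062). The 1 Csgalnact1 UMI of control round 2 lay in its 1 dividing cell, so that library held no Csgalnact1 UMI in this fit, which called no gene at all. Within injured round 2 alone Csgalnact1 stood at 2.94 CPM in the Myoc-led cluster, 123 in the Aspn-led cluster, 124 in the dividing cluster and 19.4 to 46.6 in the inner and unresolved annulus clusters. The outer label of the Myoc-led cells depended on the clustering, since at the coarser resolution of 0.5 a cluster led by Angptl7 and Myoc was named inner annulus.

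**Figure D2:**
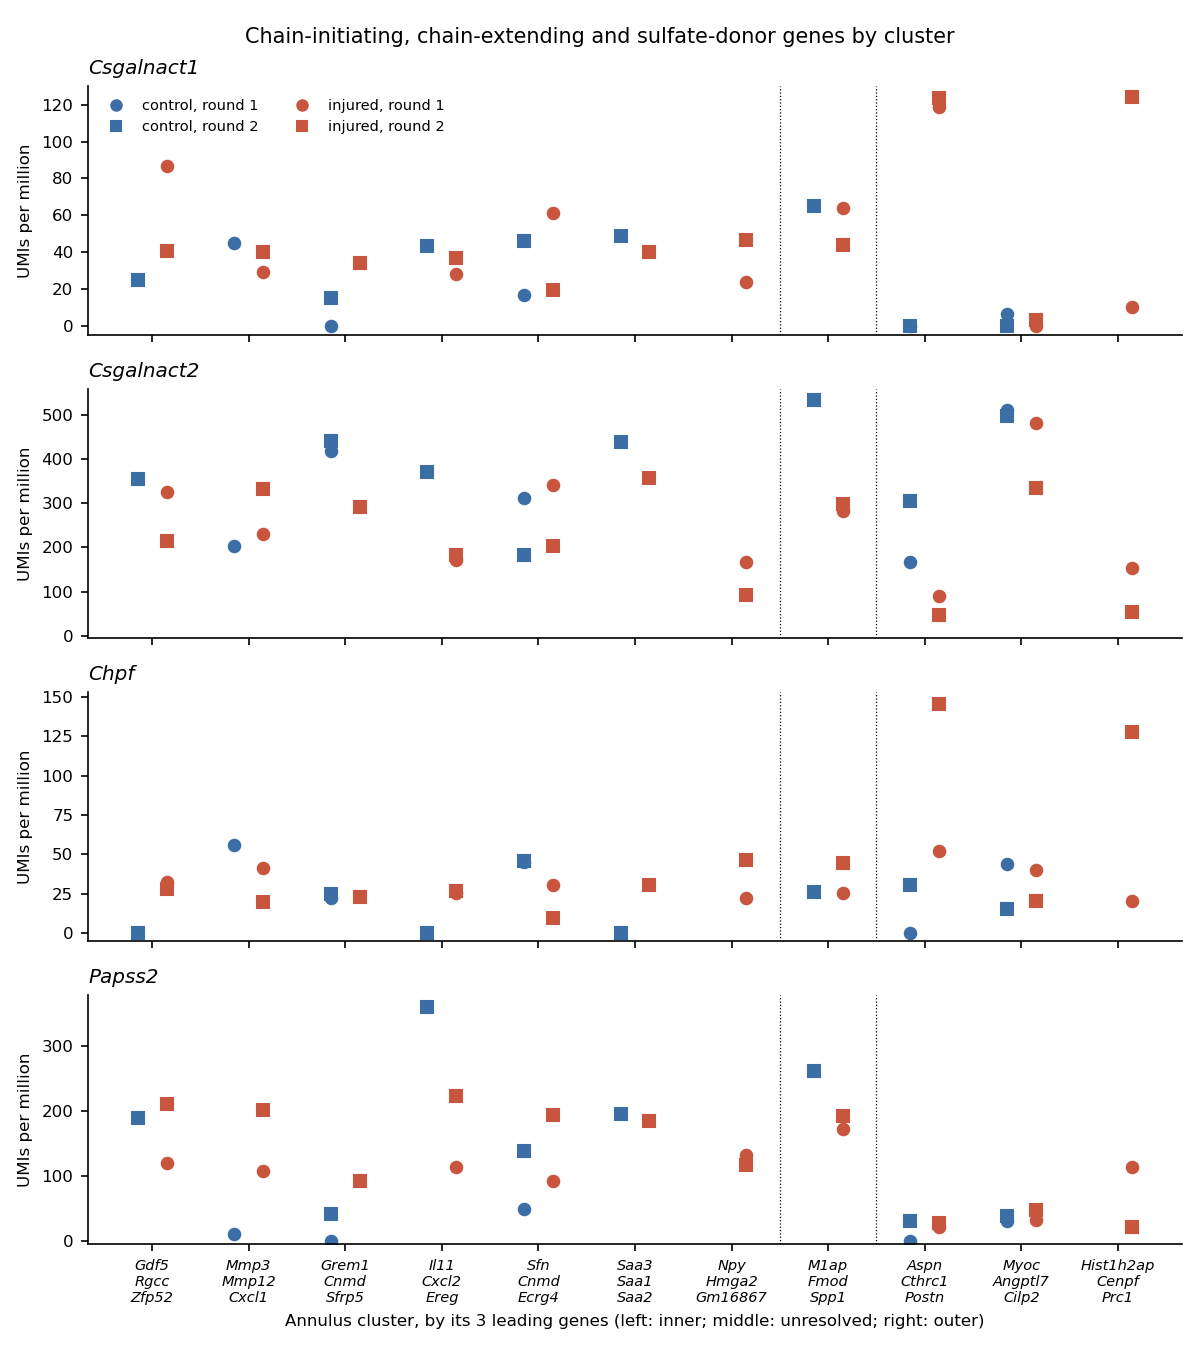
Levels of Csgalnact1, Csgalnact2, Chpf and Papss2 in each annulus cluster, in CPM, 1 symbol per library with at least 20000 UMIs in that cluster; each cluster is named by its 3 leading genes, and dotted lines part the inner, unresolved and outer clusters. The Aspn-led cluster is high in Csgalnact1 and low in Csgalnact2 after injury, the Myoc-led cluster the reverse in all 4 libraries, and Papss2 in injured round 2 is 27.3, 47.1 and 91.5 in the Aspn-led, Myoc-led and Grem1-led clusters against 117 to 223 in the other inner and unresolved clusters.

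Papss2 encodes one of the 2 synthases of PAPS, the sulfate donor on which every sulfotransferase of the pathway depends, and its loss is known to cause skeletal dysplasia. In inner annulus-like cells Papss2 (ENSMUSG00000024899, mm10 chr19:32595790-32667187, plus strand) stood at 36.4, 90.5, 113 and 203 CPM. Both injured libraries lay above both controls, though injured round 1 exceeded control round 2 by little. The ratio of injured to control was 3.12 in round 1 (counting interval 2.09 to 4.86) and 2.25 in round 2 (1.84 to 2.77). Its log2 fold change of 1.45 ± 0.51 was not called (edgeR adjusted p = 0.509), and with round as a block it was called higher (1.50 ± 0.29, adjusted p = 0.00914). With no block, leaving out 1 library at a time moved the value from 0.90 (without injured round 2) and 1.00 (without control round 1) to 1.86 (without injured round 1) and 2.22 (without control round 2), none of them called. Without the shared barcodes control round 1 stood at 38.8 CPM, and the blocked fit still called the gene (1.46, adjusted p = 0.00732), with 5.12% of all genes called. In outer annulus-like cells Papss2 stood at 26.5, 40.2, 50.4 and 28.0 CPM, with overlapping groups and a log2 fold change of 0.04 ± 0.55.

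The level of Papss2 also differed between clusters of the inner class, and the part of cluster shares in its difference was not tested. In the cluster led by Grem1, Cnmd and Sfrp5, which held 203 of the 238 inner cells of control round 2 but 54 of 764 in injured round 2, it stood at 41.8 and 91.5 CPM in those 2 libraries. In the Gdf5-led cluster, the largest one after injury in round 2, it stood at 189.6 CPM in control round 2 (23 UMIs) and 211 in injured round 2. In the Il11-led cluster these values were 359 (33 UMIs) and 223. In control round 1, 24 of the 25 Papss2 UMIs came from the Sfn-led cluster, at 49.5 CPM, against 92.0 in injured round 1. Without the Grem1-led cluster, which leaves 35 inner cells in control round 2, the log2 fold change in the inner class was 0.28 (edgeR adjusted p = 1.0).

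The promoter of Papss2 is printed because this gene was the only one of the 34 called in the inner class with round as a block. The 250 bases before the RefSeq start (GRCm38.p6, chr19:32595465-32595714, plus strand) have GC boxes in capitals, 1 of them on the opposite strand.
Papss2: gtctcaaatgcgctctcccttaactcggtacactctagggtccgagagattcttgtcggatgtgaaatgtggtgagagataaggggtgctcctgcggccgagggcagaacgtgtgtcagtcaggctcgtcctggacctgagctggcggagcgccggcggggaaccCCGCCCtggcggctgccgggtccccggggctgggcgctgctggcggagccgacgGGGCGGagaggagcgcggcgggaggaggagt
It holds 2 GC boxes and none of the other motifs searched.

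In the inner class 32 of the 34 genes were tested, all but Xylt2 and Chst14, and none was called (0.0% of all genes, with 807 genes at an unadjusted p under 0.05). DESeq2 called 0.915% of all genes there and none of the 34. With round as a block Papss2 alone was called, against 3.99% of all genes in either direction and 1.87% higher. Csgalnact1 in the inner class stood at 20.4, 19.9, 30.5 and 38.2 CPM, without overlap between groups (log2 fold change 0.90 ± 0.42, edgeR adjusted p = 0.656). Without the Grem1-led cluster this was 0.33 (adjusted p = 1.0). Chst15, which adds a second sulfate to N-acetylgalactosamine, had the widest fold change there, 1.83 ± 0.76 (adjusted p = 0.59), at low levels of 2.91, 3.32, 6.22 and 14.2 CPM, with 14.3 CPM in the empty droplets of injured round 1.

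**Figure D3:**
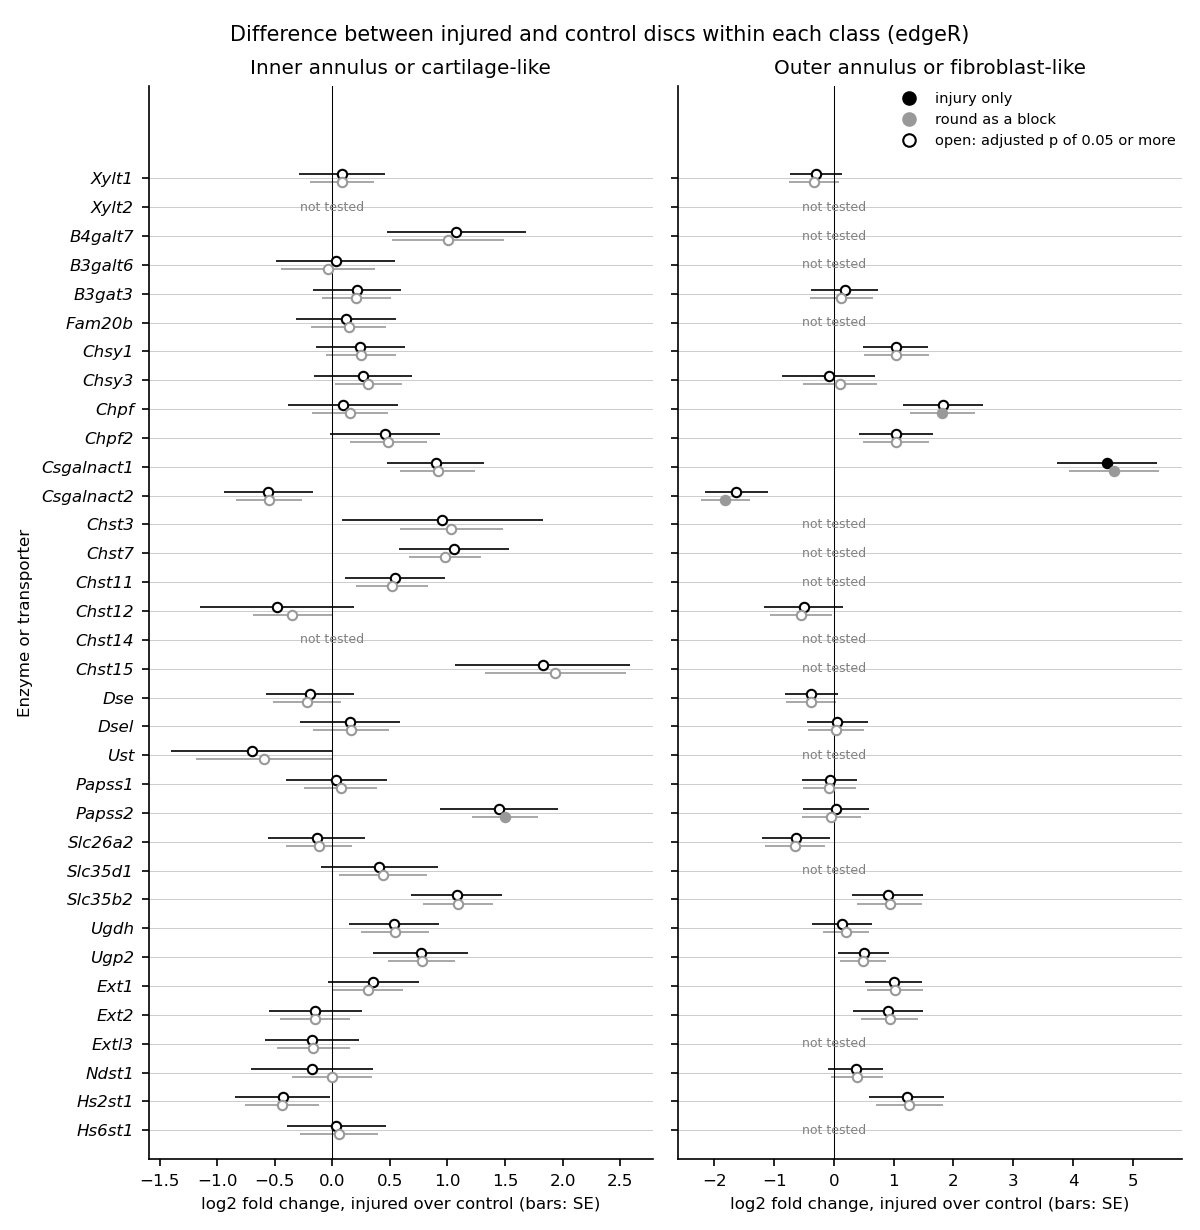
Log2 fold changes of injured over control discs with standard errors in the inner and outer annulus classes, with injury as the only term (black) and with round as a block (grey); filled symbols have an adjusted p under 0.05. Csgalnact1 in the outer class (4.57) is the only filled black symbol; with the block Chpf and Csgalnact2 in the outer class and Papss2 in the inner class are filled too.

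Whether the 2 annulus classes differed in their response was tested directly, as an interaction of class and injury. None of 32 genes was called, against 0.0986% of all genes. The unadjusted edgeR p was under 0.05 for 4 of the 32 and for 708 of all 9128 genes tested. For Csgalnact1 the change in the outer class exceeded that in the inner class by 3.58 ± 0.83 on the log2 scale (edgeR adjusted p = 0.163), and with no filter on low counts by 3.54 (adjusted p = 0.0186). For Papss2 the outer change was lower by -1.40 ± 0.67 (adjusted p = 0.671). Without injured round 1, 5 of the 34 were called, against 3.8% of all genes: Csgalnact1 and Chpf with a higher change in the outer class, and Csgalnact2, Chst15 and Papss2 with a lower one.

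Among the linkage enzymes no gene was called in any injury comparison, with or without the block, or in the interaction, which was fitted without it; all genes were called at 0.0% to 1.69% without the block, 3.99% to 10.1% with it and 0.0986% in the interaction, so a count of 0 among so few genes is near the background. Xylt1 and Xylt2 encode the xylosyltransferases that put the first sugar on the core protein. Over disc cells Xylt1 stood at 157, 179.8, 171 and 161 CPM, with overlapping groups and a log2 fold change of 0.04 ± 0.33. B3gat3, which closes the linker with glucuronic acid, stood at 28.6, 30.9, 37.3 and 28.4 CPM (0.20 ± 0.36). The xylose kinase Fam20b and the galactosyltransferases B4galt7 and B3galt6 reached at most 28.7, 19.7 and 12.9 CPM in disc cells of any library, and Xylt2 at most 7.72.

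The sulfotransferases and epimerases of the chondroitin route were likewise not called in either fit. Chst12, a chondroitin 4-O-sulfotransferase, differed more between rounds than between groups in both classes. It stood at 8.73, 41.5, 10.1 and 23.7 CPM in inner cells and at 15.9, 59.2, 11.2 and 39.9 in outer cells, with round 2 above round 1 each time. Chst7, a 6-O-sulfotransferase, stood at 24.3, 13.8, 56.8 and 20.7 CPM in disc cells, and injured round 1 stood apart. Chst3, the main 6-O-sulfotransferase of cartilage, was highest in injured round 2, at 35.2 CPM against 7.37 to 14.9 in the other libraries. Chsy3 in disc cells stood at 61.4, 31.4, 64.1 and 37.8 CPM, higher in round 1 than in round 2 for both groups. The uronyl 2-O-sulfotransferase Ust stayed between 4.91 and 7.72 CPM.

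Of the supply genes, Ugp2 makes UDP-glucose and Ugdh oxidizes it to UDP-glucuronic acid, a building block of chondroitin and heparan chains and of hyaluronan. In disc cells Ugp2 stood at 170.4, 227, 285 and 312 CPM, with both injured libraries above both controls, but the log2 fold change of 0.65 ± 0.35 was not called (edgeR adjusted p = 0.738). Ugdh stood at 313, 215, 406 and 262 CPM, higher in round 1 than in round 2 in each group (0.39 ± 0.40). Slc35b2, which carries PAPS into the Golgi, stood at 25.4, 24.8, 45.4 and 53.7 CPM, without overlap between groups, though the empty droplets of injured round 1 held it at 40.9 CPM, near the level in disc cells there. Its log2 fold change of 1.04 ± 0.36 (adjusted p = 0.579) stayed above the threshold with the block too (1.05, adjusted p = 0.0558). Papss1, the other PAPS synthase, the sulfate importer Slc26a2 and the nucleotide sugar transporter Slc35d1 had log2 fold changes of 0.06, -0.16 and 0.12.

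Summed over its 7 genes, the supply group stood in inner annulus-like cells at 573, 725, 924 and 1015 CPM, with both injured libraries above both controls. The chondroitin group there, at 639, 767, 603 and 649 CPM, overlapped between groups, as did the linkage group at 237, 309.6, 277 and 274 and the heparan group at 323, 232, 256 and 232. In outer annulus-like cells the chondroitin sum was 769, 835, 625 and 662 CPM, lower in both injured libraries, and most of it was Csgalnact2 in the controls. The heparan sum there was 175, 192, 221 and 349.8 CPM, higher in both. The outer supply sum, at 716, 568, 902 and 668 CPM, overlapped between groups, as did the outer linkage sum at 117, 156, 157 and 145. These sums were not tested.

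**Figure D4:**
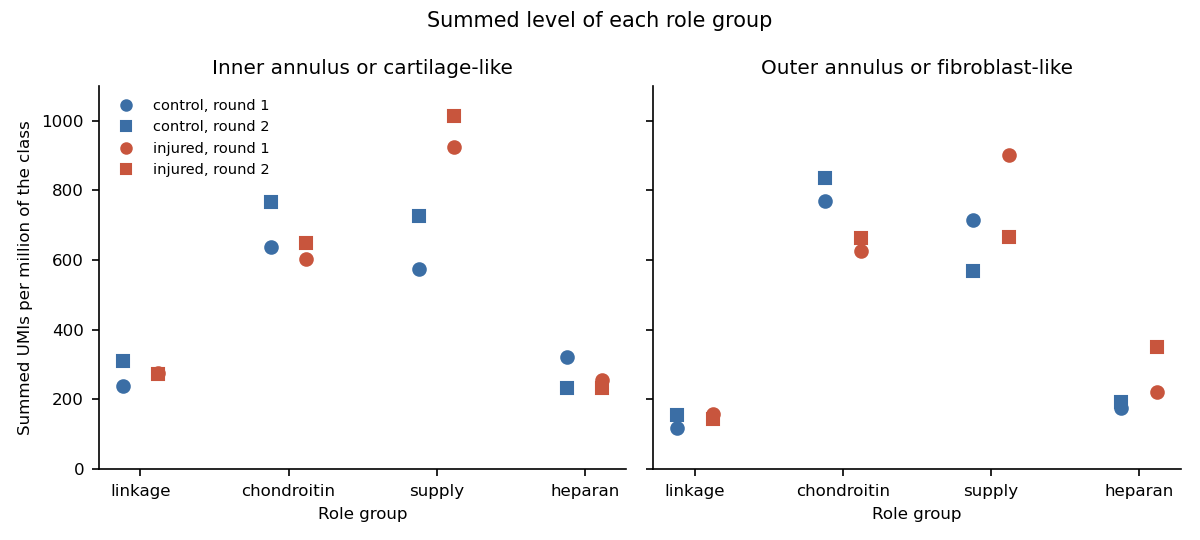
Summed CPM of each role group in the inner (left) and outer (right) annulus classes, 1 symbol per library on an axis that starts at 0. The supply sum in the inner class is 573 and 725 in controls and 924 and 1015 in injured libraries, and the outer chondroitin sum is lower in both injured libraries.

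None of the 6 heparan sulfate enzymes among the 34 genes was called in any injury comparison, with or without the block, or in the unblocked interaction, a count near the same background (at most 1.69% without the block and 10.1% with it). Ext1 and Ext2 form the polymerase of the heparan chain. Ext1 stood at 37.0, 43.0, 62.1 and 50.7 CPM in disc cells (log2 fold change 0.55 ± 0.35, edgeR adjusted p = 0.794). In the outer class it stood at 31.8, 35.5, 61.7 and 76.0 CPM, without overlap between groups (1.00 ± 0.48, adjusted p = 0.409). Ndst1, which replaces acetyl groups of the chain with sulfate, stood at 123, 43.6, 82.9 and 60.1 CPM in disc cells, and the controls were at either end of that range. Hs2st1, the heparan 2-O-sulfotransferase, stood at 10.6, 26.0, 28.0 and 61.5 CPM in the outer class (1.22 ± 0.63, adjusted p = 0.451); in the empty droplets of injured round 1 it was at 26.0 CPM.

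Between the classes, and without a test because the classes come from the same cells, 7 of the 34 genes were higher in inner than in outer annulus-like cells in all 4 libraries, 4 were lower in all 4, and 23 were neither. These shares, 20.6% and 11.8%, were near those over all 11212 genes tested in disc cells, 17.6% and 12.5%. The 7 were Xylt1, Chsy3, Chst7, Chst11, Papss2, Extl3 and Hs6st1. Xylt1 averaged 188 ± 18.0 CPM (SD, n = 4 libraries) in inner and 76.8 ± 12.6 in outer cells. Chst11, the chondroitin 4-O-sulfotransferase best known from cartilage growth, averaged 51.2 ± 15.4 and 16.2 ± 5.61. The 4 higher in outer cells were Chst12, Papss1 and the 2 dermatan sulfate epimerases Dse and Dsel, which turn glucuronic into iduronic acid. Dse averaged 73.1 ± 18.2 CPM in outer and 40.6 ± 7.98 in inner cells, and Dsel 44.6 ± 13.0 and 23.0 ± 5.39. The 2 PAPS synthases thus had opposite gradients, since Papss1 averaged 53.3 ± 8.77 in outer and 27.1 ± 7.40 in inner cells and Papss2 36.3 ± 11.3 and 111 ± 69.5.

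Other cell types held fewer cells and wide counting error. In nucleus pulposus-like cells of control discs, a class with many mitochondrial transcripts, Chst11 stood at 303 CPM (19 UMIs) in round 1 but at 18.4 (2 UMIs) in round 2. Csgalnact2 there had 1 and 2 UMIs (18.4 CPM in round 2), while its level was 306 and 419 CPM in inner annulus-like cells of the same libraries. Endothelial-like cells of injured round 1, 36 cells, carried Ext1 at 284 CPM and Ndst1 at 139. Macrophage-like cells of the injured libraries, 39 and 93 cells, held Ndst1 at 5.57 and 0 CPM and Hs2st1 at 72.4 and 52.3.

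The rest of the pathway was read from lists of further genes. In the outer class, of 20 core proteins of proteoglycans tested, Lum alone was called without the block, against 1.69% of all genes. Lum, the keratan sulfate proteoglycan lumican, stood at 53.0, 16.6, 193 and 546 CPM and rose by a log2 fold change of 3.53 (edgeR adjusted p = 0.0326; with the block 3.50, adjusted p = 1.04e-06). Without control round 2 the Lum call was lost (2.72, adjusted p = 0.192), as it was without the dividing cluster (3.76, adjusted p = 0.0689). With the block, which called 10.1% of all genes there, the outer class also had Cd44 called higher (1.89) and Tgfbr3 (-1.34), Ogn (-1.32) and Vcan (-1.45) called lower. Vcan, the chondroitin sulfate proteoglycan versican, stood at 2630, 3531, 1774 and 759 CPM there, and Tgfbr3 is the coreceptor betaglycan.

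In disc cells, none of the further lists had a call without the block. With the block, which called 4.65% of all genes, 6 of 25 core proteins were called: Sdc3 (1.40), Lum (3.12) and Epyc (1.75) higher and Tgfbr3 (-1.51), Ogn (-1.40) and Gpc3 (-3.45) lower. Without the shared barcodes, where 1.9% of all genes were called, Sdc3 and Tgfbr3 were called, and Lum, Epyc, Ogn and Gpc3 were not (edgeR adjusted p from 0.0813 to 0.121). Of 8 further heparan enzymes tested, Sulf2, an extracellular sulfatase that trims heparan sulfate, was called higher (1.16), and the 3-O-sulfotransferases Hs3st3a1 (-2.86) and Hs3st3b1 (-2.12) lower. Without the shared barcodes Hs3st3b1 alone of these was called, with an adjusted p of 0.0757 for Sulf2 and 0.0636 for Hs3st3a1. Hs3st3b1 stood at 16.9, 24.3, 5.57 and 3.83 CPM, with both injured libraries below both controls. Of 4 keratan enzymes Chst5 was called lower (-1.62; without the shared barcodes -1.67, adjusted p = 0.045).

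Hyaluronan, a glycosaminoglycan made at the cell membrane without a core protein, has its own synthases. Has1 stood at 223, 208, 95.8 and 102 CPM in disc cells and was called lower with the block (-1.06, adjusted p = 0.0338 by edgeR; without it -1.07, adjusted p = 0.525). Without the shared barcodes the Has1 call in disc cells was lost (-1.12, adjusted p = 0.0803). Has2 in the inner class stood at 99.0, 74.7, 203 and 133 CPM and was called higher with the block (1.05, adjusted p = 0.0476; without it 1.06, adjusted p = 0.545). Has1 was also called lower in the inner class with the block (-1.10, adjusted p = 0.0483; without the shared barcodes -1.17, adjusted p = 0.0256). In the same fits Hs3st3a1, Hs3st3b1, Chst5, Tgfbr3 and Ogn were lower and Sdc3 and Dcn higher in the inner class, where 3.99% of all genes were called; these and Has2 were also called without the shared barcodes. In the outer class, beside those named, B4galt1 (1.55) was called higher and Hs3st1 (-1.77) and Chst5 (-2.99) lower with the block. Of 12 lysosomal enzymes that break the chains down, 11 were tested in disc and inner cells and 7 in the outer class, and none was called in any injury comparison with or without the block (at most 10.1% of all genes), with Idua (-1.38 ± 0.61) and Glb1 (0.95 ± 0.53) at the largest changes in disc cells. Of 3 further chondroitin and linkage genes, 2 were tested in disc and inner cells and 1 in the outer class. None of those tested was called with or without the block (at most 10.1% of all genes), with Pxylp1 at 0.38 ± 0.55 and Uxs1 at 0.05 ± 0.39 in disc cells.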

How the data were processed

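Single-cell RNA sequencing libraries (10x Chromium v3) of 2 control and 2 injured pools were used. The deposited values are whole UMI counts per gene and barcode, not normalized, which the authors obtained with Cell Ranger on mm10; per the file headers control round 1 used version 6.0.0, and per the labels' notes the others version 4. The libraries were not filtered alike: control round 1 lists only 444 barcodes, all above a minimum UMI total, and the others list mostly empty droplets. Cells had at least 250 detected genes, and genes were kept if seen in 5 cells, as the series text states. Doublets were not removed in the reported values; an alternative removed 1 (control round 1), 6 (control round 2), 5 (injured round 1) and 27 (injured round 2) cells.

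Cells were clustered with scanpy 1.11.5 (2000 variable genes without the pathway's enzymes, 30 components, 20 neighbours, Leiden resolution 1). Clusters were named by whichever of 19 marker lists, leaving out that of dividing cells, had most genes detected. A marker had to be in at least 25% of a cluster's cells and 1.2-fold above the rest. No name was given to clusters with under 3 markers, or with low UMIs and no marker among their top 10 genes. The same held where another list had more markers among those 10 genes. It also held where over 50% of the control round 1 cells were shared barcodes of similar UMIs. Where the best list and the other list were both of disc cells, the cluster was called unresolved annulus, a label added after the clusters had been seen. Rebuilt names can differ from the authors'.

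Counts were summed per library and class and tested with edgeR 4.0.16 (quasi-likelihood, two-sided, default low-count filter, TMM, injury only; Benjamini-Hochberg over all genes tested) in R 4.3.3, after a check on simulated data. DESeq2 1.42.0 was an alternative. The interaction was fitted to the sums of both annulus classes in each of the 4 libraries, with terms for library, class and class by injury. The library term pairs the sums of a library and also holds round, so no block was added. A difference between the classes that varies with round was not modelled. Standard errors are log2 fold changes over the square root of F. Rounds pair the libraries because control and injured discs came from the same animals per the labels, and the blocked fit is printed where it changes a call. With 2 pairs that fit leaves few residual degrees of freedom. Its p-values rest on how the 2 round differences agree and on dispersion shared across genes. Nothing in the labels says that the rounds used separate animals. The p-values of either fit thus speak for these 4 libraries only, and those without the block measure the spread between them. Intervals are 95% and cover counting error only; a count of 0 is taken to allow 3 counts. Promoters came from RefSeq (GRCm38.p6) and matched 27 of the 34 genes; gene positions are from GENCODE on mm10. Genes named with values are those called with or without the block and the 2 with the most UMIs in disc cells per role; others were added after their values were seen, and not every gene of the further lists is reported here. The genes and lists were chosen with earlier results of these data known.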

Additional observations from a re-analysis of the deposited data

Results flagged for a closer look

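Dcn, the core protein decorin that carries 1 chondroitin or dermatan sulfate chain, was the only gene of the pathway lists called in the test of whether the injury difference itself differed between the 2 annulus classes; with no filter on low counts Prg4 and Csgalnact1 were called too, and without injured round 1 so were 5 of the 34 genes and further genes of the other lists, among them Acan and Vcan. Its change in the outer class was lower than that in the inner class by -2.96 ± 0.45 on the log2 scale (class by injury interaction, edgeR adjusted p = 0.0448). In inner annulus-like cells Dcn stood at 3934, 1642, 11673 and 8003 CPM (control rounds 1 and 2, then injured rounds 1 and 2), and in outer annulus-like cells at 15756, 14593, 11059 and 6191. The interaction was not called without control round 2 (-2.36, adjusted p = 0.285) or with RLE normalization (-2.95, adjusted p = 0.0767), and was called under the other alternatives run. Every injured library was above both controls in the inner class and below both in the outer class. Within 1 class the difference was not called without the block (adjusted p = 0.392 for inner and 0.408 for outer cells); with it the inner class was called higher (2.04, adjusted p = 0.0436). The outer class held mostly the Myoc-led cluster in controls and the Aspn-led cluster in injured round 2. The inner class shifted too: the Grem1-led cluster gave 77.4% of its UMIs in control round 2 and 3.95% in injured round 2, and the Mmp3-led cluster 12.9% in control round 1 and 59.3% in injured round 1. The part of these shifts in the Dcn values was not tested.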

How the results depend on the processing

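Of 2150 fold changes of single members recomputed under the alternatives, none that was called turned its direction; 184 that were never called changed sign (largest 1.99 on the log2 scale), 19 were called only under the alternative and 3 lost the call. Counts of calls depended strongly on the pairing. With round as a replicate block, members called went from 0 to 2 in all cells, 0 to 2 in disc cells, 0 to 1 in the inner class and 1 to 3 in the outer class, and genes called from 14 to 736, 2 to 521, 0 to 410 and 88 to 527. With the block and without the shared round 1 barcodes (added after seeing the data) genes called were 242, 213, 524 and 527, and members 1 in all cells, 1 in the inner class and 3 in the outer class. With no filter on low counts genes called were 378, 300, 199 and 293, and 136 against 9 for the interaction, where 1 member (Csgalnact1) was called. DESeq2 called 181 genes (all cells), 120 (disc) and 94 (inner class). At 500 genes per cell 0 genes were called in all cells and 0 in disc cells; with the lowest UMI total listed in control round 1 as a minimum everywhere, 30 in all cells; with a mitochondrial share under 10% 0 in disc cells and 57 in the outer class. In all cells, 3 genes were called without the shared barcodes and 36 without doublets; for the interaction 19 without shared barcodes and 1 with RLE normalization. Without the dividing cluster (added) the outer class had 0 members and 0 genes called. Leaving out each library in turn gave 126 to 273 genes in all cells, 0 to 107 in disc cells, 3 to 178 in the inner class, 37 to 632 in the outer class and 9 to 380 for the interaction, and 0 to 3 members in the outer class (0 without control round 2 or injured round 2, 3 without injured round 1) and 0 to 5 for the interaction (5 without injured round 1). In these fits the lone library of a group is assumed to vary like the other group. The outer class and the interaction were not run at resolution 0.5, where the outer class had 6 control cells in round 1 and a cluster led by Angptl7 and Myoc was named inner annulus. The cause of these shifts was not tested. Depth limited the outer class most in control round 1 (188563 UMIs), then in injured round 1 (356799) and control round 2 (422521), against 3105075 in injured round 2.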
